A study of Homo sapiens with 2 samples.

Results

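Ribosome-related genes that carry small nucleolar RNA (snoRNA) genes in their introns were followed in a list of RNA peaks from ARP1 cells, a human line established from multiple myeloma. The 6 genes were RPL3, RPL7A, RPL13 and RPL23 of the large ribosomal subunit, RPS2 of the small subunit, and RACK1, a scaffold protein that sits on the small subunit. They were selected on their peaks and read counts in this list, with the results known, so their values are a description and were not tested. They were listed with 7 of the 236 distinct peaks, and 6 of the 199 gene symbols in the list are theirs. The other 17 ribosomal protein genes in the list, named RPL or RPS, with 18 peaks, served for comparison.

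The peaks came from RNA immunoprecipitation followed by sequencing. One library, the IP, was RNA recovered from cell lysate with an antibody against SFRS8, a regulator of pre-mRNA splicing also named SFSWAP, and the other, the input, was RNA of the same line taken without antibody. No treatment separated the groups, and each group was 1 library of 1 line, so no difference between them has a replicate check. The protocol also describes an antibody against the m6A RNA mark, and whether that step applied to these libraries is unclear. The header of the peak list names neither library. Here the plain count column stands for the IP, and the column marked CTL for the input, called the control below. If they were swapped, every order by ratio would turn. All peaks together held 12068 IP reads and 87259 control reads. The totals of both libraries are unknown, so strength was measured within each peak as IP reads divided by control reads. This quotient, the ratio, can be read only against that of other peaks. A ratio below 1 is not depletion. Its 95% interval is the exact Clopper-Pearson interval of the split of reads, and it covers counting error only, as each group was 1 library. PCR copies could not be told apart, and where reads are copies the interval is too narrow. The median ratio of all peaks was 0.190. Of 11 plasma cell and myeloma markers, 4 had a peak (ITGB7, JCHAIN, MZB1 and XBP1), and none of 18 markers of other cells (stromal, erythroid, myeloid and T cells) was listed with one. Of all 20056 protein-coding genes in RefSeq, 0.897% were listed with a peak, so the absence of so few markers says little about which cells were present.

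Ribosomal protein genes are among the most highly transcribed genes, and many of their introns hold a snoRNA that is released when the intron is spliced out and trimmed. Box C/D snoRNAs (SNORD genes) guide methylation of ribosomal RNA riboses and box H/ACA snoRNAs (SNORA genes) guide conversion of uridine to pseudouridine. One transcript can therefore yield both a ribosomal protein mRNA and an RNA that modifies the ribosome. Most ribosomal protein mRNAs also begin with a run of pyrimidines, the 5′ terminal oligopyrimidine tract, through which growth signals control their translation.

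The starts of 4 of the 6 genes were in the RefSeq promoter table (GRCh38.p14). They are shown because a pyrimidine run at the start is a feature that the choice of the genes did not use. Each window has 20 bases before and 20 bases from the annotated first base of the transcript, 5′ to 3′ on the strand of the gene, and capitals mark the unbroken run of C and T that holds that first base. The windows lie at chr22:39319604-39319643 (RPL3), chr9:133348198-133348237 (RPL7A), chr16:89560662-89560701 (RPL13) and chr5:181243887-181243926 (RACK1).
RPL3: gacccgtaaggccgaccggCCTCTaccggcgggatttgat
RPL7A: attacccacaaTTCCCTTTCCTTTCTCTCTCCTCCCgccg
RPL13: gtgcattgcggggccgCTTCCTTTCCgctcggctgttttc
RACK1: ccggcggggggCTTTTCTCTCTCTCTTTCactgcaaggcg
The run was 5 bases long in RPL3, 10 in RPL13, 18 in RACK1 and 25 in RPL7A. For RPL13 the table has 3 starts, and the start shown is the one with the longest run. The runs at the other starts were 4 and 0 bases. These lengths include bases before the first base of the transcript, so they are not lengths of the tract in the mRNA. Counted in this way, a run of at least 5 bases at one or more starts was present in 4 of these 4 genes. It was present in 12 of 15 of the other RPL and RPS genes found in the table and in 11.9% of all 27305 genes in it. From the first base on, the run in RPL3 is shorter than 5 bases. None of the 5 peaks of these 4 genes overlapped the 300-base promoter window of its gene as that table gives it. The nearest peak lay 670 to 724 bases from the window of RPL13, depending on the start, 853 from that of RPL3, 1406 from that of RACK1 and 1543 from that of RPL7A. These 5 peaks therefore did not bear on the promoters shown.

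RPL3 and RPL7A stood apart from the other members by their IP reads. RPL3, a protein near the catalytic centre of the large subunit, held 318 reads in the IP and 836 in the control, which gave a ratio of 0.380 (0.333 to 0.433). RPL7A, a large-subunit protein, held 273 reads in the IP and 1295 in the control, which gave a ratio of 0.211 (0.184 to 0.240). RPL3 thus had more IP reads on fewer control reads, and the intervals of both did not overlap. Together their 2 peaks held 591 of the 804 IP reads of the 7 peaks but 2131 of the 5806 control reads.

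The other 4 genes had between 19 and 56 IP reads per peak. RPL13, a large-subunit protein, held 56 reads in the IP and 493 in the control, which gave a ratio of 0.114 (0.0846 to 0.150). RPS2, which lies by the mRNA entry channel of the small subunit, had the same 56 IP reads on 998 control reads, a ratio of 0.0561 (0.0421 to 0.0735). RPL23, a large-subunit protein that also binds the p53 regulator MDM2, held 35 reads in the IP and 1146 in the control, which gave a ratio of 0.0305 (0.0212 to 0.0427), the lowest of the 6. RPL13 and RPS2 thus had equal IP reads but ratios whose intervals did not overlap, through their control reads.

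RACK1 was the only one of the 6 genes with more than 1 peak. Its wider peak, towards the 3′ end of the gene, held 47 reads in the IP and 814 in the control, which gave a ratio of 0.0577 (0.0421 to 0.0775). Its narrower peak, near the middle of the listed gene span, held 19 reads in the IP and 224 in the control, which gave a ratio of 0.0848 (0.0501 to 0.136). The narrower peak had 1.47 times (0.797 to 2.61, exact conditional 95% interval) the ratio of the wider one, so a difference between the parts of the gene was not detectable at this depth. Taken as a sum, the ratio of RACK1 was 0.0636.

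**Figure D1:**
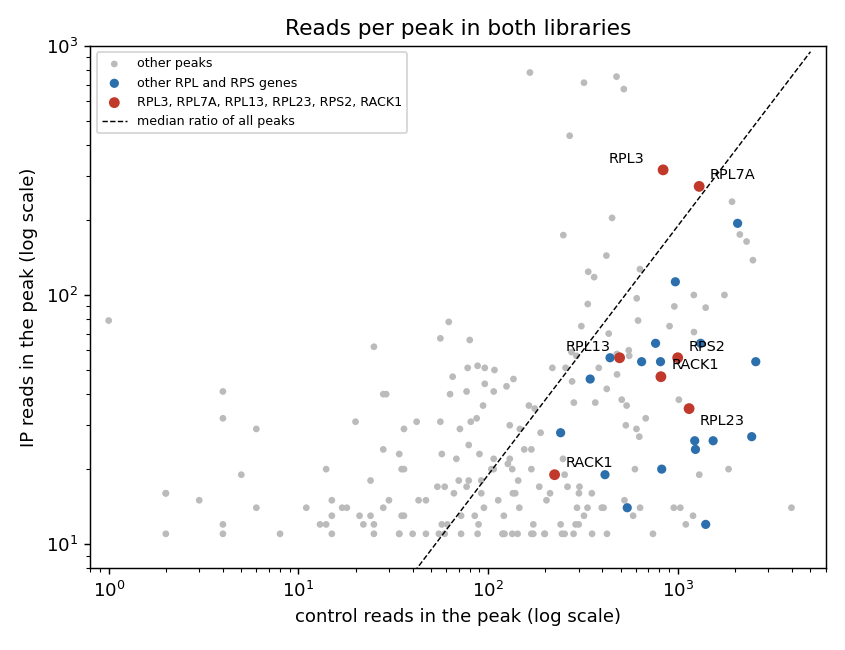
IP reads against control reads in each peak, both on log scales, for the 224 peaks with control reads. The peaks of the 6 genes are in red, those of the other RPL and RPS genes in blue and the rest in grey, and the dashed line is the median ratio of all 236 peaks. RPL3 and RPL7A lie above the line at 318 and 273 IP reads, and the other 5 red points lie below it at 19 to 56 IP reads.

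By the peak with the highest ratio, the order of the 6 genes was RPL3, RPL7A, RPL13, RACK1, RPS2 and RPL23. The intervals of RPL3, RPL7A and RPL13 lay apart from one another. Those of RPL13 and RACK1, of RACK1 and RPS2, and of RPS2 and RPL23 overlapped. The quotient of the ratios, with its exact conditional 95% interval for counting error, was 1.34 (0.762 to 2.44) for RPL13 over RACK1 and 1.51 (0.831 to 2.64) for RACK1 over RPS2, so counting error does not separate these neighbours. For RPS2 over RPL23 it was 1.84 (1.17 to 2.91), an interval that lies above 1. Against all peaks, 2 of the 7 peaks had a ratio above the median, where 50% of all peaks do so by definition. The interval lay wholly above the median for 1 of the 7 peaks, RPL3, and for 36.4% of all peaks, and wholly below it for 5 of the 7 and for 40.3% of all peaks. RPL7A was neither, since its interval held the median, but this depended on the reference. Against the median of peaks outside chromosome 21 (0.162) or of peaks in protein-coding genes (0.165), the RPL7A interval lay wholly above, as did those of 40.3% and 39.8% of all peaks. Among the 236 peaks, ranked from the highest ratio, RPL3 was at place 77 and RPL23 at 216.

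The other RPL and RPS genes all had lower ratios than RPL3 and RPL7A. Over the 6 genes the median ratio was 0.0992, with a range of 0.0305 to 0.380, and over the other 17 it was 0.0460, with a range of 0.00856 to 0.133. The intervals of all 17 lay wholly below that of RPL3, wholly below that of RPL7A and wholly below the median of all peaks. The highest were RPL6 (46 IP and 345 control reads, 0.133), RPL29 (56 and 439, 0.128) and RPL11 (113 and 970, 0.116), and RPL11 is another ribosomal protein that binds MDM2. RPL6 was first only by its stronger peak, as its other peak had 64 IP and 1318 control reads (0.0486), and with both summed its ratio was 0.0661, at place 8 of the 17. The lowest were RPL12 (12 and 1402, 0.00856), RPS4X (27 and 2450, 0.0110) and RPL5 (26 and 1534, 0.0169), the last a partner of RPL11 in the particle that carries 5S ribosomal RNA. RPL12 was at place 235 of all 236 peaks.

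The remaining members lay inside the range of the other ribosomal protein genes. RPL13 had 4 of the 17 above it and 13 below it, RACK1 had 5 above and 12 below, RPS2 had 8 above and 9 below, and RPL23 had 9 above and 8 below. With RPL3 and RPL7A left out, which was decided on their values, the other 4 members had a median of 0.0705 and a summed ratio of 0.0580 (0.0502 to 0.0666). The summed ratio of the 17 genes was 0.0452 (0.0422 to 0.0483). Both intervals cover counting error of pooled reads and leave out the spread between genes. By gene, the ratios ran from 0.0305 to 0.114 in the 4 members and from 0.00856 to 0.133 in the 17 genes. The intervals of the sums therefore do not show a difference between the sets.

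**Figure D2:**
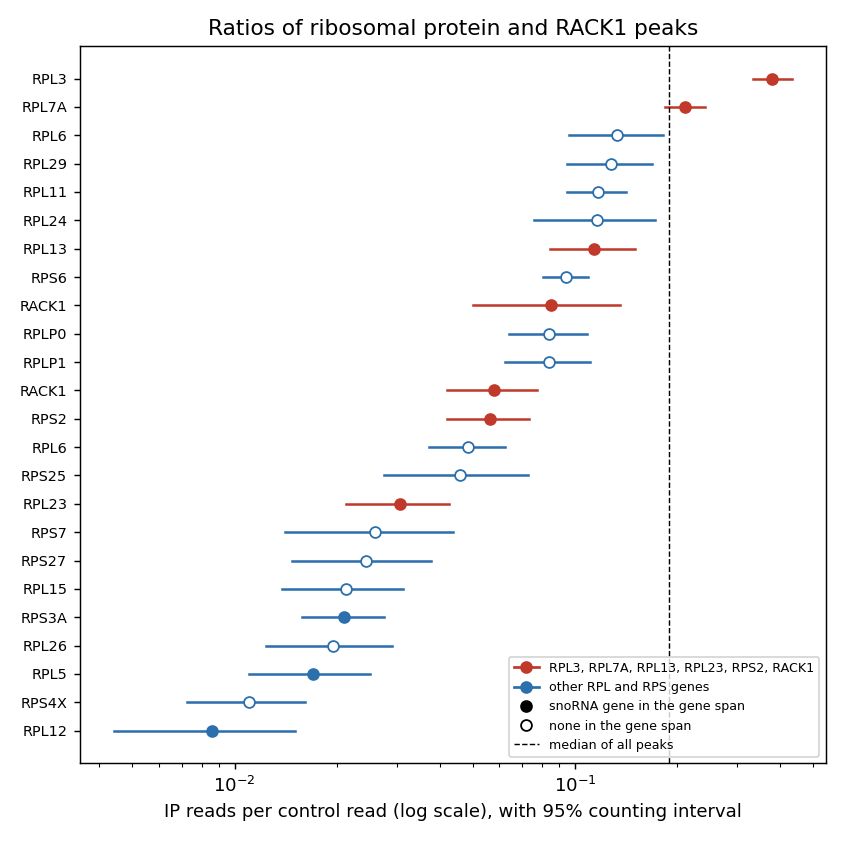
Ratio of IP to control reads, on a log scale, of 24 peaks of ribosomal protein genes and RACK1, ordered by ratio. Bars are 95% counting intervals, red marks the 6 genes and blue the other RPL and RPS genes, filled points are genes whose span holds a snoRNA gene, open points genes with none, and the dashed line is the median of all peaks. RPL3 and RPL7A are the only points to the right of that line, and the filled blue points lie between RPS3A at 0.0210 and RPL12 at 0.00856.

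At similar control reads, RPL3 and RPL7A had more IP reads than the ribosomal protein and RACK1 peaks they were compared with. Among the peaks closest to RPL3 in control reads were those of RPS27 (822 control and 20 IP reads), RACK1 (814 and 47) and RPLP0 (763 and 64), and RPL3 had 15.9, 6.77 and 4.97 times their IP reads. The 3 closest to RPL7A were those of RPL6 (1318 and 64), RPL26 (1238 and 24) and RPL15 (1227 and 26), and RPL7A had 4.27, 11.4 and 10.5 times their IP reads. These neighbours were picked by control reads after the ratios were known, and not by peak width. All of them had lower ratios than RPL3 and RPL7A, so fewer IP reads at similar control reads followed from the ratios. The folds given here restate the ratios and are no separate support. RPL11 was close to RPL3 in width (6000 and 5880 bases) and had 970 control and 113 IP reads. RPL3 had 2.81 times the IP reads of RPL11. Only 13.0% of the RPL7A peak lay inside the gene, so its reads cannot be assigned to RPL7A alone.

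A snoRNA gene in the span did not separate high from low ratios. By RefSeq positions, without regard to strand because the table gives none, 9 of the 22 RPL and RPS genes with a peak held a named snoRNA gene, and 13 did not. The median ratio was 0.0561 in the 9 genes, with a range of 0.00856 to 0.380, and 0.0839 in the 13, with a range of 0.0110 to 0.133. Hosts outside the 6 genes included RPS3A (0.0210), RPL5 (0.0169) and RPL12 (0.00856). RPS3A hosts box C/D snoRNAs, as RPL3 and RPL7A do, RPL12 hosts a box H/ACA snoRNA and RPL5 hosts one of each class. Genes that host box C/D snoRNAs therefore lay at the top and near the bottom of the order.

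The spans of the 6 genes held 15 named snoRNA genes, 11 of box C/D and 4 of box H/ACA, and 9 of the 15 lay wholly inside a peak. The peaks covered much of some spans (77.8% in RPL3, 50.3% in RPL7A and 93.2% in RPS2) and only 7.19% in RPL23. Whether 9 of 15 is more than this coverage alone would give was not tested. Each of the 6 spans held at least 1, and their place in introns is background knowledge, since exon positions were not used here. In RPL3 the peak covered SNORD83B, SNORD83A and SNORD139 and stopped 331 bases short of SNORD43, the one nearest the 5′ end. In RPL7A it covered SNORD36B, SNORD36A and SNORD36C and began 340 bases after SNORD24, again the one nearest the 5′ end. In RPS2 it covered both, SNORA10 and SNORA64. In RPL13 the peak began 1 base inside SNORD68 and held 71 of its 72 bases.

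The peaks of the lowest member and of the 3′ part of RACK1 held no snoRNA gene. The RPL23 peak lay 1023 bases from SNORA21B and 2362 from SNORA21, the nearer and the farther of its snoRNA genes. In RACK1 the narrower peak held all 72 bases of SNORD96A and lay 863 bases from SNORD95, and the wider peak held none. snoRNA genes made up 9.55% of the RPS2 peak, 6.40% of the narrower RACK1 peak, 4.13% of the RPL3 peak, 1.69% of the RPL7A peak and 1.61% of the RPL13 peak. The order of these shares was not the order of the ratios, as RPS2 had the largest share and the second lowest ratio. The reads of a peak are given as 1 sum, so how many came from a snoRNA, an exon or the rest of an intron was not tested.

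**Figure D3:**
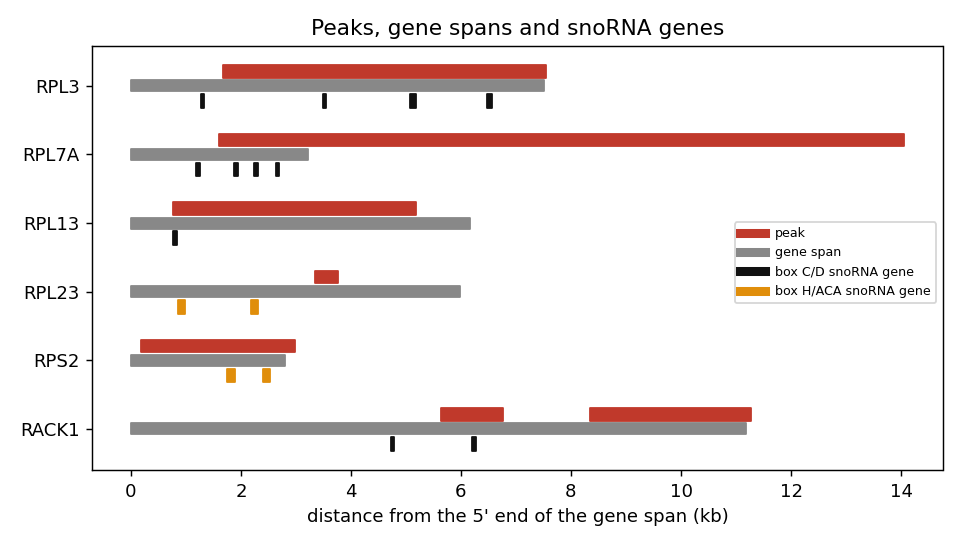
Peaks (red), gene spans as listed (grey) and snoRNA genes (black for box C/D, orange for box H/ACA) of the 6 genes, by distance in kb from the 5′ end of the gene span. The RPL7A peak runs 10839 bases past its gene, the RPL23 peak is 430 bases wide and holds no snoRNA gene, and RACK1 has 2 peaks, the narrower one over SNORD96A.

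The peaks were wider than any of these snoRNA genes, which measured 55 to 135 bases. They lay on the following positions of GRCh38. The RPL3 (ENSG00000100316) peak was chr22:39312841-39318720 on the minus strand, 5880 bases wide, with 99.3% of it inside the gene and 77.8% of the gene under it. The RPL13 (ENSG00000167526) peak was chr16:89561431-89565840 on the plus strand, 4410 bases, wholly inside the gene and over 71.5% of it. The RPS2 (ENSG00000140988) peak was chr16:1961876-1964670 on the minus strand, 2795 bases, with 93.7% inside the gene and 93.2% of the gene under it. For these 3 genes most of the transcribed span was under the peak.

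By the listed spans, smaller stretches were covered in RPL23 and RACK1. The listed span of RACK1 runs 4190 bases beyond the RefSeq gene at the 5′ end, so its peaks take up a larger share of the RefSeq gene. The RPL23 (ENSG00000125691) peak was chr17:38850071-38850500 on the minus strand, 430 bases, over 7.19% of the gene. The RACK1 (ENSG00000204628) peaks were chr5:181236826-181239750, with 2925 bases of which 97.2% lay inside the gene, and chr5:181241326-181242450, with 1125 bases wholly inside it, both on the minus strand and 1575 bases apart. Whether exons or introns lay under these narrower peaks was not tested.

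RPL7A (ENSG00000148303) was the exception. Its peak, chr9:133349811-133362265 on the plus strand, was 12455 bases wide, and 1616 bases (13.0%) lay inside the gene, over 50.3% of the gene. The other 10839 bases ran past the 3′ end of the gene. By RefSeq spans, without regard to strand, SURF1 held 38.0% of the peak, SURF2 37.0% and SURF4 6.44%, and the file lists the same peak with SURF2 as well. The 273 IP reads cannot be assigned to RPL7A alone, and with peaks centred inside their gene only, RPL3 was the 1 of 5 members above the median of all peaks.

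The RPS2 gene had a second peak on the opposite strand. This plus-strand peak, chr16:1961191-1964970, was listed with NDUFB10, a subunit of mitochondrial complex I, and with an unnamed lincRNA (ENSG00000255198). By position, the span of the lincRNA held a snoRNA gene, SNORA78, that did not lie wholly inside the peak. The peak covered all 2809 bases of RPS2 with SNORA10 and SNORA64. It held 15 reads in the IP and 43 in the control, which gave a ratio of 0.349 (0.180 to 0.641). The minus-strand peak of RPS2, with 998 control reads, had a ratio of 0.0561, and the intervals did not overlap. The RPS2 peak was also listed with a processed pseudogene (ENSG00000255513), so a part of its reads is uncertain. No other listed peak overlapped one of the other 5 genes.

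The shape of the peaks went with the strand. All 5 minus-strand peaks of the 6 genes were at least 93.7% inside the gene and none ran over 176 bases past its 3′ end, while 1 of the 2 plus-strand peaks, RPL7A, ran far past it. The other RPL and RPS genes showed the same split. Of their 8 plus-strand peaks 7 ran at least 500 bases past the gene, at most 8326 bases in RPL5, and of their 10 minus-strand peaks none did, with at most 40 bases. Their median width was 6367.5 bases (plus strand) and 1250 bases (minus strand).

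**Figure D4:**
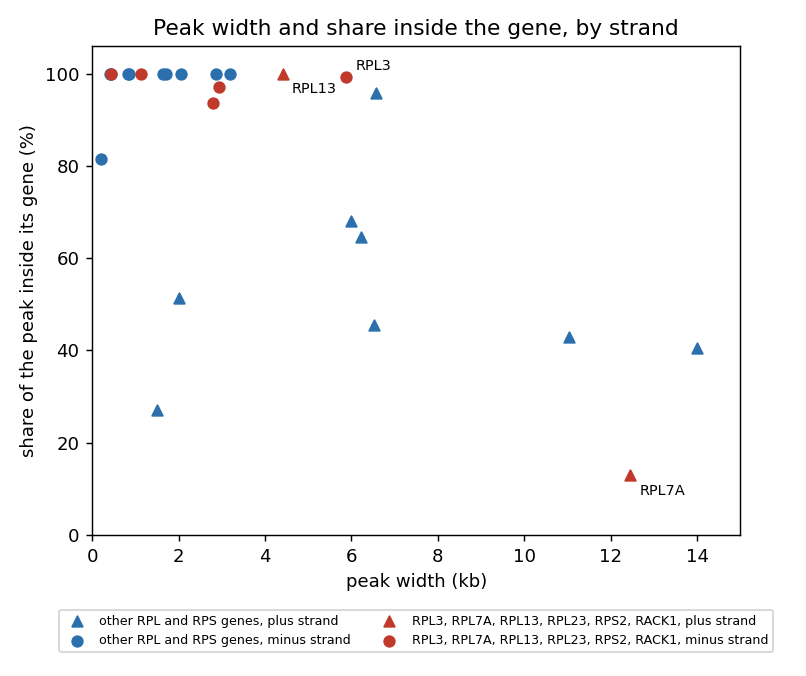
Width of each peak in kb against the share of the peak inside its gene, for the 6 genes (red) and the other RPL and RPS genes (blue), with triangles for the plus strand and circles for the minus strand. The circles lie at 81.4% to 100%, and the triangles spread from RPL7A at 13.0% to RPL13 at 100%.

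Peak edges also lay on a grid within many sets of 1 chromosome and strand. On chromosome 16 the 13 minus-strand peaks, RPS2 among them, had starts and widths in steps of 215 bases, and the 12 plus-strand peaks, RPL13 among them, in steps of 630 bases. The step was 225 bases for the 14 minus-strand peaks of chromosome 5 with RACK1 and 215 for the 16 of chromosome 17 with RPL23. On chromosome 1 the step was 250 bases for the plus strand and 220 for the minus strand, but on chromosome 21 it was 200 for both. The 17 plus-strand peaks of chromosome 12 shared a step of only 5 bases, which is no grid of this kind. For RPL3 and RPL7A too few peaks shared the chromosome and strand to read a step. The steps read for RPS2, RPL13, RACK1 and RPL23 are longer than any of the snoRNA genes, so the edges of these peaks do not resolve one.

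Counted per kilobase of peak, the order of the members differed from that of the ratios. RPL23 had 81.4 IP reads per kb, RPL3 54.1, RPL7A 21.9, RPS2 20.0, RACK1 16.9 and 16.1, and RPL13 12.7, where the median of all peaks was 16.1. In control reads per kb RPL23 was again highest, at 2665, with RPS2 at 357, RACK1 at 278 and 199, RPL3 at 142, RPL13 at 112 and RPL7A at 104, where the median of all peaks was 62.8. All 7 peaks lay above that median, which splits all peaks evenly by definition. This was not particular to the members. Their median was 199 control reads per kb, and that of the other RPL and RPS peaks was 526, with a range of 49.1 to 5758. Among the 6 genes, RPL23 thus had the most reads per length in both libraries and the lowest ratio. RPL3 came after RPL23 in IP reads per kb but after RPL23, RPS2 and RACK1 in control reads per kb. The place of RPL7A is set by its width, most of which lies outside the gene.

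The authors' deposited scores ordered the members differently, with RPL23 first and RPL3 and RPL7A last. In the authors' deposited table RPL23 had a log-odds score of 747, the second highest of all 236 peaks, RPL13 had 250, RACK1 249 and 195, RPS2 211, RPL3 120 and RPL7A 71.3. The deposited p-value was exactly 0 for 5 of the 7 peaks, 1.13e-164 for RPL3 and 3.54e-132 for RPL7A. By the authors' table, therefore, the peaks of RPL3 and RPL7A were the weakest of the 7, and by IP reads per control read they were the strongest. How the score weighs the control is not given in the sources used here.

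**Figure D5:**
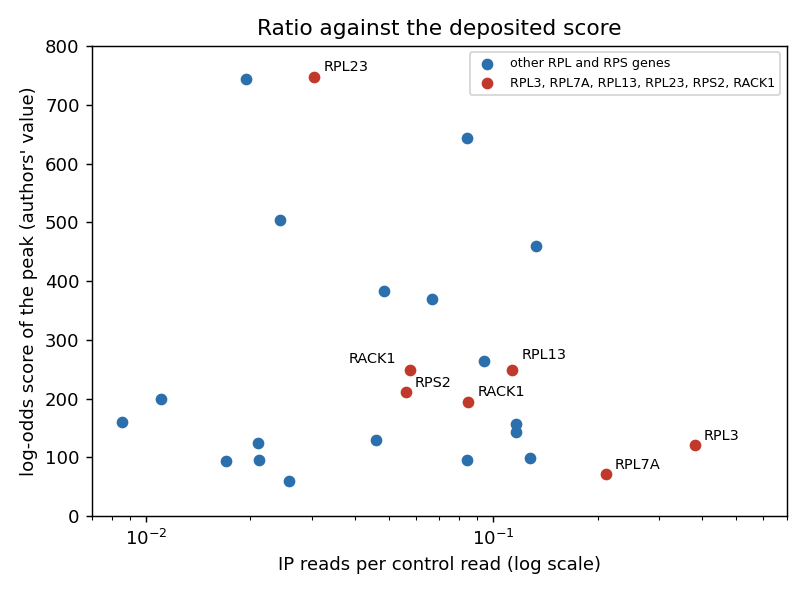
Ratio of IP to control reads, on a log scale, against the authors' deposited log-odds score of the peak, for the 6 genes (red) and the other RPL and RPS genes (blue). RPL23 lies at the upper left, with a score of 747 and a ratio of 0.0305, and RPL3 and RPL7A lie at the lower right, with scores of 120 and 71.3.

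For each peak of the 6 genes, the most similar listed gene outside the ribosomal protein genes was found by the distance between log10 read counts of both libraries. The closest match was LRRFIP1 to RPL13, with 58 IP and 477 control reads and a ratio of 0.122 (0.0909 to 0.160). RAN, a nuclear transport GTPase, was closest to the narrower RACK1 peak (19 and 253 reads, 0.0751), and PPIA, the prolyl isomerase cyclophilin A, to both RPL23 and the wider RACK1 peak (38 and 1012 reads, 0.0375). HNRNPA1, a splicing repressor, was closest to RPS2 (75 and 904 reads, 0.0830), and VIM, the intermediate filament vimentin, to RPL7A (237 and 1930 reads, 0.123). MKI67, the Ki-67 antigen, was closest to RPL3 (204 and 450 reads, 0.453) at the longest distance of the 7.

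Other snoRNA host genes in the list lay above as well as below the middle of the list. Outside the ribosomal protein genes and RACK1, 6 genes with a symbol held a named snoRNA gene, with a median ratio of 0.165, and 3 of them lay above the median of all peaks. The highest were EIF3A, a subunit of translation initiation factor 3 (13 IP and 15 control reads, 0.867), ATP5F1B, a subunit of mitochondrial ATP synthase (18 and 79, 0.228), and RCC1, the exchange factor of RAN (35 and 176, 0.199). The EIF3A ratio rests on few reads, with an interval of 0.380 to 1.95. The other EIF3A peak had 41 IP and 77 control reads (0.532). Neither the peaks of EIF3A nor that of ATP5F1B held the snoRNA gene itself. Over all 12 peaks of the list that wholly held a named snoRNA gene, on either strand, the median ratio was 0.0625. These 12 are not separate from the genes above, as 4 are peaks of the members and others belong to further RPL and RPS genes. The 4 of the 12 above the median of all peaks were those of RPL3, RPL7A and RCC1 and the plus-strand peak over RPS2. Of 9 genes for the proteins of snoRNA particles, such as FBL and DKC1, none was listed with a peak, which is near the share of 0.897% of all protein-coding genes that were.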

How the data were processed

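RNA of ARP1 cells from an IP with an antibody against SFRS8 and from input was compared through a single deposited peak list, with 1 library per group. The build is GRCh38 per the submitters' processing notes, which name the tools FastQC (0.11.5) and HOMER. The sources used here do not name the aligner or the peak caller, so both are not given. The deposited counts are whole reads per peak, without scaling. The deposited signal per kilobase equals the count divided by the peak width. The log-odds score and the p-value of each peak are the authors' deposited values and were used only to describe peaks.

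The 279 rows were reduced to 236 distinct peaks by chromosome, start, end and strand. Ratios of IP to control reads, with exact Clopper-Pearson intervals (SciPy 1.17.1), replaced tests between conditions, and a floor of 3 control reads was used for the 12 peaks without any. A gene with several peaks was represented by the one with the highest ratio. The interval was tested on simulated data. Quotients of 2 ratios carry the exact conditional interval of an odds ratio and were added after the values were seen. snoRNA genes were the 539 named ones of the RefSeq table of GRCh38.p14. That table holds no strand, so the planned match on strand was made by position alone. The genes studied and the lists were chosen with earlier results of these data known. Named were the 6 genes, the 3 highest and 3 lowest other RPL and RPS genes and others that host a snoRNA, save 1 gene that is not reported here, the nearest gene by read counts and the 3 highest other hosts. The nearest genes were sought outside peaks of ribosomal protein genes. The grid of peak edges, the strand split, the comparison at like control reads and the opposite-strand peak were added after the values were seen. Alternatives covered the reference peaks, the floor, the choice of peak per gene, the position in the gene and the snoRNA match. snoRNA sequences were not used here.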

Additional observations from a re-analysis of the deposited data

How the results depend on the processing

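Of 40 recomputed values, 39 stayed at the reported value or moved by less than its interval (for counts, by less than 1.5 times). Many of the 40 could not move, so this count does not measure robustness. Reads per kilobase are the counts over the same width, and the floor acts only on peaks without control reads. Summing the peaks of a gene changes nothing where the gene has 1 peak, as every member but RACK1 and every snoRNA host among the RPL and RPS genes has. The exception was the number of members above the median of all peaks, 2 of 6, which was 1 of 5 with peaks centred inside the gene, because that setting leaves out RPL7A. Peaks wholly above the reference numbered 1 of 7 against all peaks and 2 of 7 against either other reference. The median ratio of the members ran from 0.0705 without RPL3 and RPL7A, a setting added after the values were seen, to 0.114 without RACK1, and that of the other RPL and RPS genes from 0.0460 to 0.0667. The median of RPL and RPS genes that hold a snoRNA gene was 0.0561 in every setting tried, and that of genes without one ran from 0.0661, with the peaks of a gene summed, to 0.0839. The interval of a median over 6 genes spans their whole range, so it cannot show a shift. The list holds no peak with fewer than 11 IP reads, so a ratio much lower than that of RPL12 could be seen only where control reads were many. No paired analysis was possible because each group had 1 library and no test was made.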

Other observations

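The split of peak shape by strand was not limited to ribosomal protein genes. Among the other peaks of protein-coding genes, 30 of 85 on the plus strand (35.3%) ran at least 500 bases past the 3′ end of the gene, and 2 of 99 on the minus strand (2.02%) did. The median width of these peaks was 4410 bases for the plus strand against 1025 for the minus strand, and their median ratio was 0.135 against 0.338. Among the 25 peaks of RPL, RPS and RACK1 genes the median ratio was 0.0463 (plus strand) and 0.0577 (minus strand). These values were looked at after the shape of the RPL7A peak was seen, and their source was not tested.

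The members held like shares of both libraries only as a sum of 2 parts that went opposite ways. The 7 peaks had 6.66% of the IP reads and 6.65% of the control reads of all peaks, and the 18 peaks of the other RPL and RPS genes had 7.42% and 22.7%. RPL3 and RPL7A alone had 4.90% and 2.44%, and the other 4 members 1.77% and 4.21%. The other 4 members thus had the smaller share in the IP, as the other RPL and RPS genes had. These are shares of reads in peaks and not of whole libraries.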
